A study of Mus musculus with 8 samples.

Results

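The genes described here were 10 that mark astrocytes, the glial cells that take up glutamate, buffer potassium and line the blood vessels of the brain, and that carry out astrocyte transport and metabolism. They were chosen by symbol as Gfap, Slc1a3, Slc1a2, Aqp4, Mlc1, Gja1, Aldh1l1, Aldoc, Glul and Sox9, and all 10 were found among the 31406 genes of the count table. Astrocytes clear synaptic glutamate through the transporters encoded by Slc1a2 and Slc1a3 and convert it to glutamine with glutamine synthetase, the product of Glul. They move water and ions at their vascular endfeet through aquaporin 4 and the membrane protein MLC1, and are joined to each other by gap junctions of connexin 43. Their filament protein GFAP is known to rise in reactive astrocytes.

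RNA was sequenced from 8 primary cultures labelled as wild-type microglia, prepared from the striatum of C57/BL6 pups aged 2 to 4 days. The pups came from 4 pregnant animals in all, and which library came from which litter is not given. After 15 days in culture every culture received IFN-γ (0.002%, v/v; human protein by the reagent list) together with LPS (0.01%, v/v) over 48 h, and ligands were added 24, 32 and 40 h into that period. The titles put 4 libraries under SCH 58261, an antagonist of the adenosine A2A receptor (A2A antagonist group), and 4 under SCH 58261 with 200 nM 2-Cl-IB-MECA, an agonist of the adenosine A3 receptor (dual group). In the characteristics the treatment entry goes against the titles, naming 2-Cl-IB-MECA for the first 4 libraries and not for the others, so every direction given here rests on the titles. The names of the deposited count columns follow the titles, not that entry. Activated cultures without ligand were not analysed here, so an effect of SCH 58261 itself cannot be read from these values.

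The total count was between 32630602 and 45878639 per library, and 26155 to 26809 genes had a count in each. Levels are in CPM (counts per 1e6 counts, with library sizes scaled by TMM factors), and where different genes are compared the CPM was divided by the gene length in kb. The 10 genes had 5328 to 90170 counts each in every library, so counting error was 0.333% to 1.37% of a value. The SD between libraries of a group was 1.14% to 10.5% of the mean. All values are from bulk RNA, in which fewer cells of a type and less RNA per cell cannot be told apart. The labels do not say whether the libraries of a group came from separate animals, so p-values measure only the spread between these libraries. Group means are given with the SD over the 4 libraries of the group.

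Of the 10 astrocyte genes, 5 were among the most abundant transcripts of the cultures. Together the 10 genes took 0.801% ± 0.0145 (SD, n = 4) of the counts in the A2A antagonist group and 0.815% ± 0.0278 (SD, n = 4) in the dual group. Summed over the 10 genes, this made 8047 ± 132 for the antagonist and 8123 ± 248 for both ligands (CPM, SD, n = 4 each). Of the 14858 protein-coding genes that passed the low-count filter, 5 of the 10 were in the top 1% by CPM per kb. Gfap ranked 58, Mlc1 87, Aqp4 111, Glul 129 and Slc1a3 134.

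Because the cultures are labelled as microglia, markers of other cell types were set beside these genes. The authors reported from anti-CD11b labelling that nearly all cells were microglia. That is a share of cells, which levels of bulk RNA do not give. The median over the astrocyte genes was 161 CPM per kb, and it was 30.5 CPM per kb over 14 microglia markers and 54.0 CPM per kb over 7 fibroblast markers. C1qa, a subunit of complement C1q made by microglia, had the highest level of these at 423 CPM per kb and was the only one of the 14 above Gfap, while 7 of the 14 were above Gja1, the lowest astrocyte gene. C1qb had 202, C1qc 154 and Tyrobp 110 CPM per kb, and other defining genes of microglia had less, with 35.8 CPM per kb for Aif1, 46.3 for Csf1r, 25.3 for Itgam, 3.20 for Tmem119 and 0.720 for P2ry12. The median was 4.59 CPM per kb over 9 oligodendrocyte lineage markers, 9.99 over 6 ependymal, 1.17 over 6 neuronal, 0.292 over 5 endothelial and 0.158 over 7 mural markers. Of the listed markers, 14 of 15 for microglia and 5 of 6 for endothelial cells were among the 31406 genes of the count table. Every gene there had a count in some library, so that the markers found had counts was fixed in advance. The 10 astrocyte genes thus had a higher median level than the 14 microglia markers found, but such a median depends on the genes chosen. The 7 lists of other astrocyte-related genes, described below, had medians from 2.43 (gap junction and hemichannel) to 46.5 CPM per kb (other astrocyte-enriched). Only the last of these was above the microglia median.

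**Figure D1:**
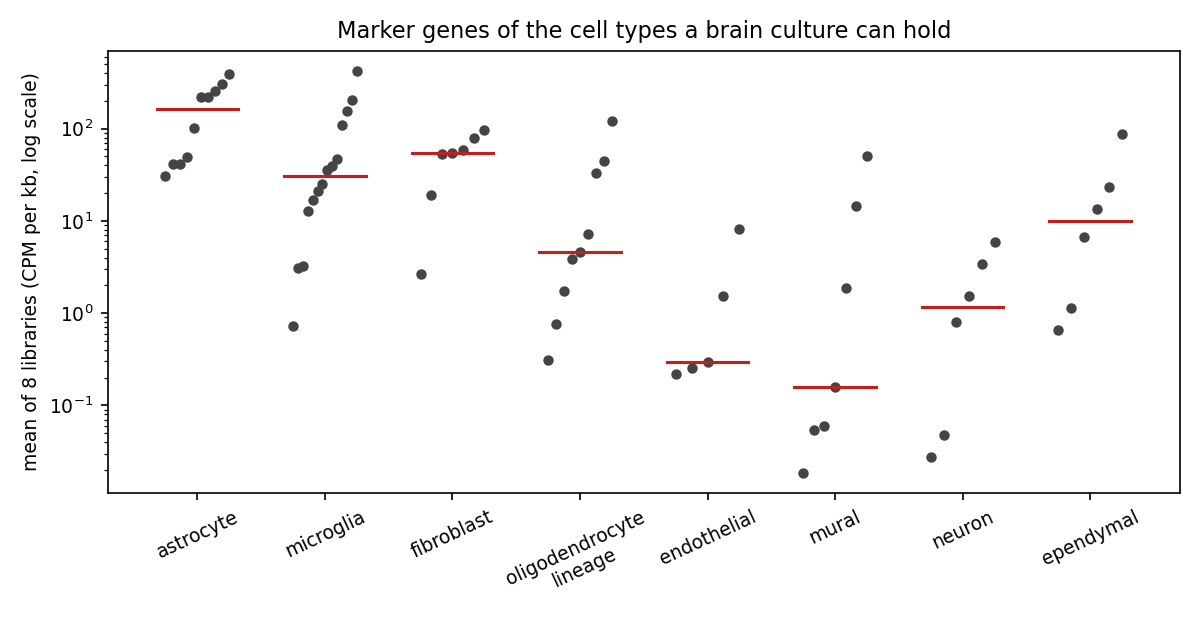
Level of marker genes of 8 cell types, as the mean over the 8 libraries in CPM per kb on a log axis. Each point is 1 gene and the red line is the median of its list. Of the lists shown, that of the 10 astrocyte genes has the highest median, 161 CPM per kb. The microglia list, with a median of 30.5, spans from 0.720 (P2ry12) to 423 (C1qa). Lists of other astrocyte-related genes are not shown.

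The order of the 10 genes by length-scaled level was nearly fixed across libraries. Gfap, the astrocyte intermediate filament, was highest at 393 ± 16.4 CPM per kb (SD, n = 8), followed by Mlc1 with 305 ± 9.03 (SD, n = 8), Aqp4 with 258 ± 13.6 (SD, n = 8), Glul with 223 ± 6.65 (SD, n = 8) and Slc1a3 with 219.6 ± 7.68 (SD, n = 8). Aldoc, the brain form of the glycolytic enzyme aldolase, followed with 103 ± 4.61 CPM per kb (SD, n = 8). Lower down were Slc1a2 with 49.3 ± 3.33 (SD, n = 8), Aldh1l1 with 41.4 ± 2.70 (SD, n = 8), Sox9 with 41.0 ± 1.24 (SD, n = 8) and Gja1 with 30.3 ± 2.89 (SD, n = 8) CPM per kb. Glul and Slc1a3 had overlapping ranges, with Glul above Slc1a3 in 3 of 8 libraries, and so had Aldh1l1 and Sox9, with Aldh1l1 above Sox9 in 6 of 8. The other neighbours in the order kept their places in 8 of 8 libraries. The place of Aqp4 above Glul and Slc1a3 rests on the length of 5082 bases that the file gives. GENCODE M21 has 6233 exonic bases for Aqp4. With the same counts divided by that length, the mean of Aqp4 over the 8 libraries would not stand above theirs. Counts made on that annotation were not examined. For comparison, Vim, the filament protein of many glial and mesenchymal cells, had 649 CPM per kb, and Apoe, a lipid carrier that both astrocytes and microglia make, had 2294.

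**Figure D2:**
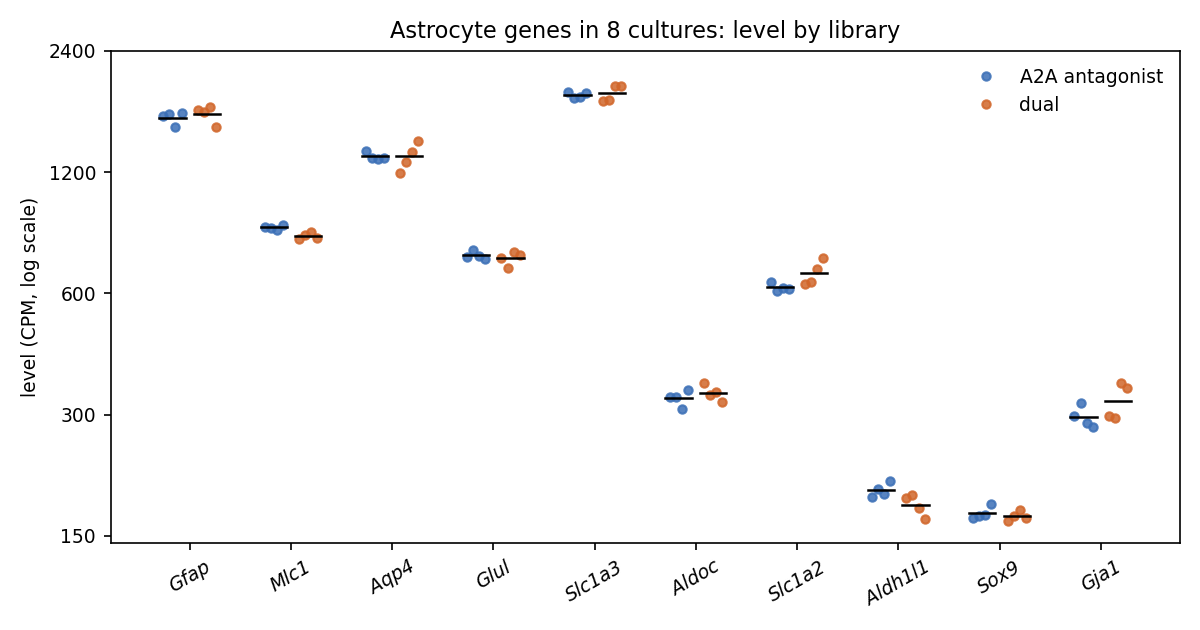
Level of the 10 astrocyte genes in CPM on a log axis, ordered by CPM per kb, with 1 point per library (4 A2A antagonist, 4 dual) and a line at each group mean. The groups lie on top of each other for most genes, and Mlc1 is the gene whose 4 dual libraries are all below the 4 A2A antagonist libraries.

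Comparing dual with A2A antagonist libraries addresses the addition of the A3 agonist to a blocked A2A receptor. In edgeR's quasi-likelihood test 0 of the 10 passed an adjusted p-value of 0.05, where 0.208% of the 18756 genes tested did (0.048% higher and 0.16% lower). Slc1a2 and Gja1, with higher values in the dual group, and Mlc1 and Aldh1l1, with lower ones, had unadjusted p-values under 0.05. These are 4 of the 10, and 12.8% of all genes tested reached that level (5.98% higher and 6.81% lower). The groups did not overlap for 1 of the 10, Mlc1, and for 7.42% of all genes tested (3.36% higher and 4.06% lower). The DESeq2 Wald test also called 0 of the 10, where it called 3.37% of the 11313 genes given an adjusted p-value. In that test 3 of the 10 had an unadjusted p-value under 0.05. The share of all genes at that unadjusted level was not computed for DESeq2, so nothing is read from this count. Of the 10 genes, 5 had a higher and 5 a lower mean in the dual group. The median log2 fold change was 0.0074, against 0.0038 over all genes tested. In absolute size their median was 0.037 on the log2 scale, and it was 0.044 over the 1671 genes with a mean log2 CPM over 7. The 95% intervals of the 10 differences all lay within 19.5% of no change.

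**Figure D3:**
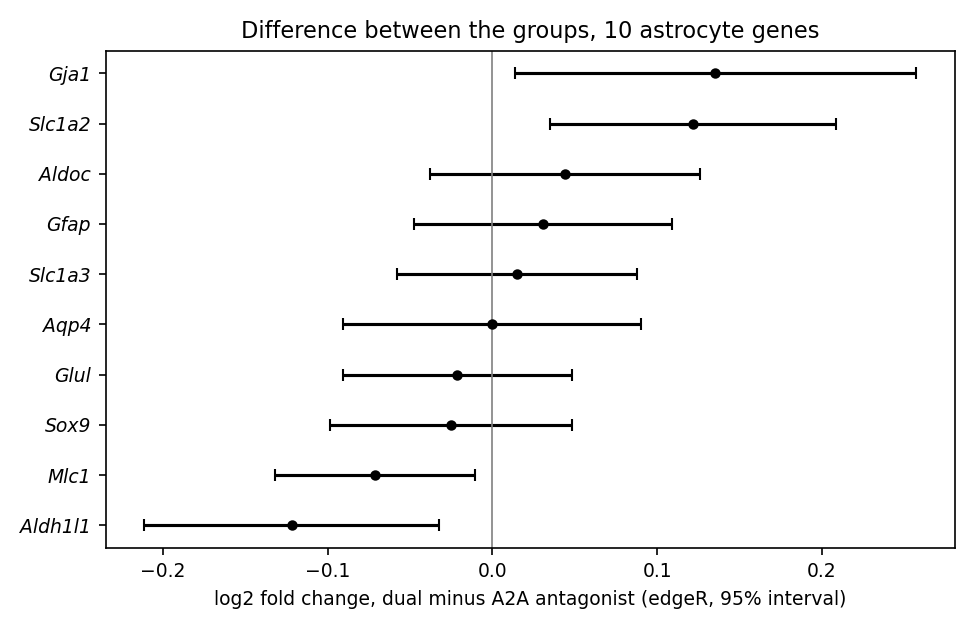
Log2 fold change of each gene, dual minus A2A antagonist, with its 95% interval from the edgeR fit. The intervals of Slc1a2 and Gja1 lie above 0 and those of Mlc1 and Aldh1l1 below it before adjustment for the number of genes tested, and the other 6 include 0.

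Slc1a2 and Slc1a3 encode the main glutamate transporters of astrocytes, GLT-1 and GLAST. Slc1a2 (ENSMUSG00000005089) lies on chromosome 2 from 102658659 to 102790784 on the plus strand, and Slc1a3 (ENSMUSG00000005360) on chromosome 15 from 8634124 to 8710764 on the minus strand (GRCm38). The 250 bases before the RefSeq start of each (GRCm38.p6, 5′ to 3′ on the gene's strand) are shown because the ratio of these paralogs separated the groups. They lie at chr2:102706188-102706437 on the plus strand, inside the span the file gives for Slc1a2, and at chr15:8710808-8711057 on the minus strand. Capitals mark matches, on either strand, to a TATA box (TATAAA) or a STAT-type palindrome (TTCNNNGAA).

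Slc1a2: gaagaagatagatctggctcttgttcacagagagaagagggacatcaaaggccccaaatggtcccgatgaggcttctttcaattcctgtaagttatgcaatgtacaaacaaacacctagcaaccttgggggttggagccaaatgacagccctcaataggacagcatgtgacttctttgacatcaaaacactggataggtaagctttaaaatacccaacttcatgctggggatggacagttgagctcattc

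Slc1a3: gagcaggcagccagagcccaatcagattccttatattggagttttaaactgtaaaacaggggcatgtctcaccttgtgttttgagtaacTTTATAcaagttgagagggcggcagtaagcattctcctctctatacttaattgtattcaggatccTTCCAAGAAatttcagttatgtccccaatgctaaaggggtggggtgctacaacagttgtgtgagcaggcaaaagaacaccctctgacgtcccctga

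The Slc1a3 window held 1 TATA box match beginning at position -161 and 1 STAT-type match beginning at position -96, counted from the start, and the Slc1a2 window held neither. Of 32851 RefSeq promoter windows of this length, taken from all chromosomes but 18, 12.4% held TATAAA and 7.02% held TTCNNNGAA. The cAMP response element TGACGTCA, in 1.55% of all windows, and the SOX-type core AACAAT, in 9.42%, were in neither window. GC content was 44.8% in both windows, where the median of all windows was 52.4%.

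Slc1a2 had 640.1, 608, 618 and 616 CPM in A2A antagonist replicates 1 to 4 and 633, 641, 691 and 735 CPM in dual replicates 1 to 4. The 2 highest values belonged to dual replicates 3 and 4, while A2A antagonist replicate 1 was within the range of the dual group, so the groups overlapped. Mean levels were 620.5 ± 13.8 for the antagonist and 675 ± 47.7 for both ligands (CPM, SD, n = 4 each). The log2 fold change was 0.12 (SE 0.041, 8.82% higher, 95% interval 2.47% to 15.6%), with an unadjusted p-value of 0.0085 and an adjusted p-value of 0.204 in edgeR. Without dual replicate 4 the log2 fold change was 0.078.

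Slc1a3 had 1899.7, 1834, 1838 and 1888 CPM with the antagonist and 1797, 1810.2, 1964 and 1964 CPM with both ligands. Dual replicates 3 and 4 were again the highest, and dual replicates 1 and 2 were the lowest of all 8. Mean levels were 1865 ± 33.8 for the antagonist and 1884 ± 93.0 for both ligands (CPM, SD, n = 4 each), a log2 fold change of 0.015 (SE 0.035, edgeR adjusted p-value 0.906), which turned to -0.0088 without dual replicate 3 and to -0.0060 without dual replicate 4. The 95% interval of the difference ran from -3.93% to 6.26%.

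The ratio of the transporters within a library does not depend on the scaling of library sizes. The length-scaled ratio of Slc1a2 to Slc1a3 was 0.219, 0.215, 0.219 and 0.212 in the A2A antagonist libraries and 0.229, 0.230, 0.229 and 0.243 in the dual libraries. Every dual library was above every A2A antagonist library. The difference was 0.11 on the log2 scale, with a two-sided exact permutation p = 0.0286, the smallest that 4 against 4 libraries can give. Adjusted over the 4 ratios examined the p-value was 0.114, which is the lowest that a single separated ratio among 4 can reach in this design, so the correction could not be passed. Without dual replicate 4, the highest, the difference was 0.084.

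**Figure D4:**
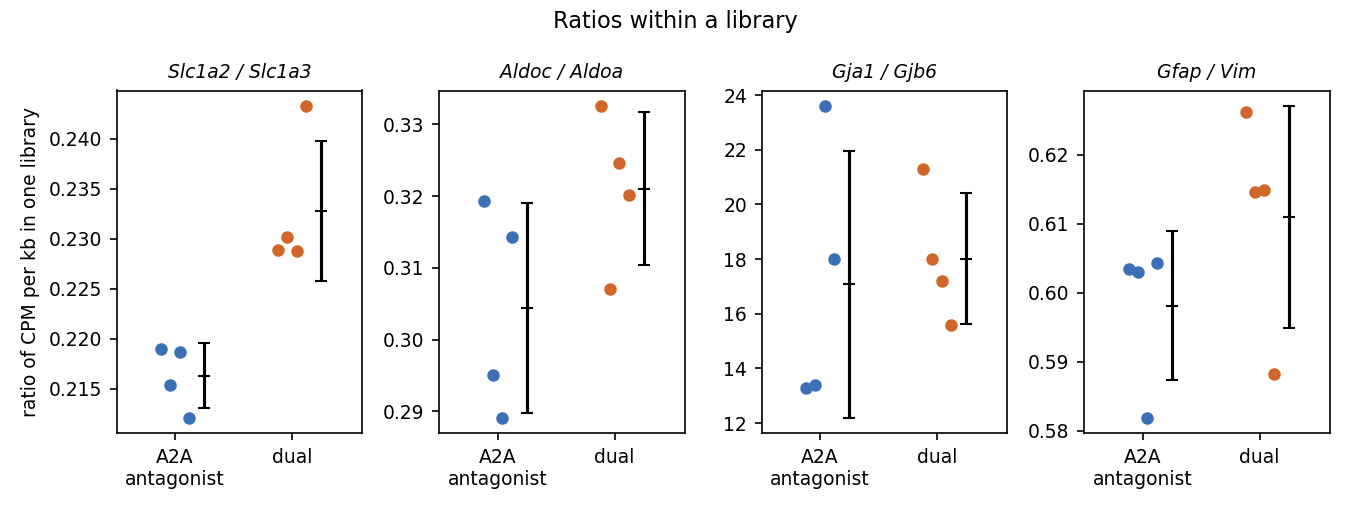
Ratios of length-scaled levels within each library for Slc1a2 to Slc1a3, Aldoc to Aldoa, Gja1 to Gjb6 and Gfap to Vim. Points are libraries and the bars give mean and SD (n = 4), on linear axes that do not start at 0. For Slc1a2 to Slc1a3 the groups do not overlap (0.212 to 0.219 against 0.229 to 0.243), and for the other 3 ratios they do.

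Glul encodes the enzyme that turns the glutamate taken up by these transporters into glutamine. It lies on chromosome 1 from 153899944 to 153909723 (ENSMUSG00000026473, plus strand). Its levels were 738, 769, 742 and 732 CPM with the antagonist and 734, 695, 759.9 and 748 CPM with both ligands. The groups overlapped, with the highest value in A2A antagonist replicate 2 and the lowest in dual replicate 2. Mean levels were 745 ± 16.2 for the antagonist and 734 ± 28.2 for both ligands (CPM, SD, n = 4 each), and the log2 fold change was -0.021 (SE 0.033, edgeR adjusted p-value 0.846), which turned positive (0.0039) without dual replicate 2. Glul shares 20.4% of its 31-base words with other transcripts, foremost the processed pseudogene Glns-ps1, which had a mean of 11.4 counts per library, so the assignment of reads from those stretches is uncertain.

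Mlc1, a membrane gene of the endfoot, was the only one of the 10 whose groups did not overlap. MLC1 is the protein mutated in a leukodystrophy with brain cysts and is found where astrocytes meet vessels and each other. The gene (ENSMUSG00000035805) lies on chromosome 15 from 88955884 to 88979007 on the minus strand. The 250 bases before its RefSeq start (chr15:88978554-88978803) are shown because Mlc1 was the only member with separated groups. They lie inside the span that the file gives for Mlc1, and hold none of the 4 motifs searched.

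Mlc1: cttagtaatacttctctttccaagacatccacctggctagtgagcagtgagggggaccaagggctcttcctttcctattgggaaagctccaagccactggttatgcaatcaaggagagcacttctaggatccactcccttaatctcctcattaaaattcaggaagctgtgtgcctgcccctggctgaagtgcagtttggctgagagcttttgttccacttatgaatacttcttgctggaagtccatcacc

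Mlc1 had 877, 871, 863 and 887 CPM with the antagonist and 820.3, 836, 851 and 822 CPM with both ligands. All 4 dual libraries were below all 4 A2A antagonist libraries, a separation found in this direction for 4.06% of all genes tested. Mean levels were 875 ± 9.94 for the antagonist and 832 ± 14.4 for both ligands (CPM, SD, n = 4 each). The log2 fold change was -0.071 (SE 0.029, -4.82%, 95% interval -8.73% to -0.748%), with an unadjusted p-value of 0.0234 and an adjusted p-value of 0.298 in edgeR. The DESeq2 Wald test gave it an adjusted p-value of 0.0705, the lowest of any member under any alternative run.

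Aqp4, the water channel of the endfoot (ENSMUSG00000024411), had nearly the same mean in both groups, and its SD was larger in the dual group, a difference that was not tested. Its levels were 1357, 1302, 1290.1 and 1298 CPM with the antagonist and 1196, 1273, 1346 and 1433 CPM with both ligands. The lowest and the highest of the 8 values were both dual libraries, replicates 1 and 4. Mean levels were 1312 ± 30.5 for the antagonist and 1312 ± 101 for both ligands (CPM, SD, n = 4 each), and the interval of the difference was from -6.08% to 6.47% (edgeR adjusted p-value 1.00). The direction of so small a difference changed with the scaling, to 0.0082 (log2) with upper-quartile factors. The span and length that the file gives for Aqp4 differ from those of GENCODE M21 for GRCm38, so its length-scaled level depends on the annotation.

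Gja1 encodes connexin 43, the main gap junction protein of astrocytes. It lies on chromosome 10 from 56377330 to 56402513 (ENSMUSG00000050953, plus strand). Gja1 had 297, 321, 286 and 279.5 CPM with the antagonist and 298, 294, 359 and 349 CPM with both ligands. As with Slc1a2, dual replicates 3 and 4 were the highest, and the other dual libraries lay within the range of the A2A antagonist group. Mean levels were 296 ± 18.4 for the antagonist and 325 ± 34.0 for both ligands (CPM, SD, n = 4 each), giving a log2 fold change of 0.14 (SE 0.058, 9.84% higher, 95% interval 0.942% to 19.5%), an unadjusted p-value of 0.0314 and an adjusted p-value of 0.329 in edgeR. Without dual replicate 3 the log2 fold change was 0.081, and without A2A antagonist replicate 2 or dual replicate 2 it was 0.18. The other connexin of astrocytes, connexin 30, is encoded by Gjb6. The length-scaled ratio of Gja1 to Gjb6 averaged 17.1 ± 4.87 in antagonist and 18.0 ± 2.40 in dual libraries (SD, n = 4 each) (two-sided exact permutation p = 0.629, 0.629 adjusted over the 4 ratios). Its log2 difference of 0.11 was 0.0029 without A2A antagonist replicate 1, 0.0074 without A2A antagonist replicate 2, 0.026 without dual replicate 1, 0.28 without A2A antagonist replicate 3 and 0.18 without dual replicate 4.

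Aldh1l1 encodes a folate enzyme, 10-formyltetrahydrofolate dehydrogenase, and is widely used as a marker of all astrocytes. It lies on chromosome 6 from 90486427 to 90600203 (ENSMUSG00000030088, plus strand), and 499 of its 4516 exonic bases overlap Gm15756 on the opposite strand, a gene with 3 to 11 counts. Aldh1l1 had 188, 196, 191 and 206 CPM with the antagonist and 186, 189, 176 and 165 CPM with both ligands. Dual replicates 3 and 4, the highest in Slc1a2 and Gja1, were the lowest in Aldh1l1, while dual replicate 2 was inside the A2A antagonist range. Mean levels were 195 ± 7.88 for the antagonist and 179 ± 11 for both ligands (CPM, SD, n = 4 each). The log2 fold change was -0.12 (SE 0.043, -8.10%, 95% interval -13.6% to -2.22%), with an unadjusted p-value of 0.0104 and an adjusted p-value of 0.218 in edgeR.

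Aldoc, on chromosome 11 from 78322968 to 78327781 (ENSMUSG00000017390, plus strand), had 309.6 to 345 CPM with the antagonist and 322 to 359 CPM with both ligands, and the groups overlapped. The log2 fold change was 0.044 (SE 0.039, edgeR adjusted p-value 0.690), and it was 0.014 without A2A antagonist replicate 3. Against Aldoa, the aldolase of most tissues, its length-scaled ratio averaged 0.304 ± 0.0146 in antagonist and 0.321 ± 0.0107 in dual libraries (SD, n = 4 each) (two-sided exact permutation p = 0.143, 0.286 adjusted over the 4 ratios). Aldoa was thus the more abundant aldolase of the pair in every library.

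Gfap, on chromosome 11 from 102887336 to 102900912 (ENSMUSG00000020932, minus strand), is the filament protein by which astrocytes are most often stained. It had 1656, 1672, 1549 and 1678 CPM with the antagonist and 1714, 1687, 1738 and 1556 CPM with both ligands. A2A antagonist replicate 3 and dual replicate 4 were the 2 lowest libraries, while dual replicates 1, 2 and 3 were above all 4 A2A antagonist libraries. Mean levels were 1639 ± 60.8 for the antagonist and 1674 ± 81.3 for both ligands (CPM, SD, n = 4 each), giving a log2 fold change of 0.031 (SE 0.037, edgeR adjusted p-value 0.791). Without A2A antagonist replicate 3 the log2 fold change was 0.0038, and without dual replicate 4 it was 0.064. The length-scaled ratio of Gfap to Vim was 0.598 ± 0.0108 (SD, n = 4) and 0.611 ± 0.0161 (SD, n = 4), with a two-sided exact permutation p = 0.286 (0.381 adjusted over the 4 ratios). The log2 difference of this ratio, 0.030, was 0.017 without A2A antagonist replicate 3, 0.018 without dual replicate 1 and 0.049 without dual replicate 4, the last with an exact permutation p of 0.0571 after adjustment.

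Sox9, the only transcription factor among the 10, maintains astrocyte gene expression. It lies on chromosome 11 from 112782224 to 112787760 (ENSMUSG00000000567, plus strand). Its levels were 167, 169, 169 and 179.6 CPM with the antagonist and 163, 168, 174 and 166 CPM with both ligands. The groups overlapped, with means of 171 ± 5.82 and 168 ± 4.66 in antagonist and dual libraries (CPM, SD, n = 4 each), and the log2 fold change was -0.025 (SE 0.035, edgeR adjusted p-value 0.821). Without A2A antagonist replicate 4 the log2 fold change was -0.0011.

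The 10 genes did not move as a block across the libraries. Dual replicate 3 had 8 of the 10 above their own mean over the 8 libraries and was the highest library for 3 of them, whereas dual replicate 1 had 2 above and was the lowest for 4. In dual replicate 4, Slc1a2 was 0.19, Gja1 0.17 and Aqp4 0.13 above their means on the log2 scale, while Aldh1l1 was 0.18 and Gfap 0.089 below theirs (log2 differences of -0.18 and -0.089). Over the 8 libraries, Pearson's r of log2 CPM was -0.94 between Slc1a2 and Aldh1l1, 0.87 between Slc1a3 and Aqp4 and 0.86 between Gfap and Aldoc. These values are a description over 8 points that share their libraries and their group difference, and these pairs had the strongest values of all pairs among the 10.

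**Figure D5:**
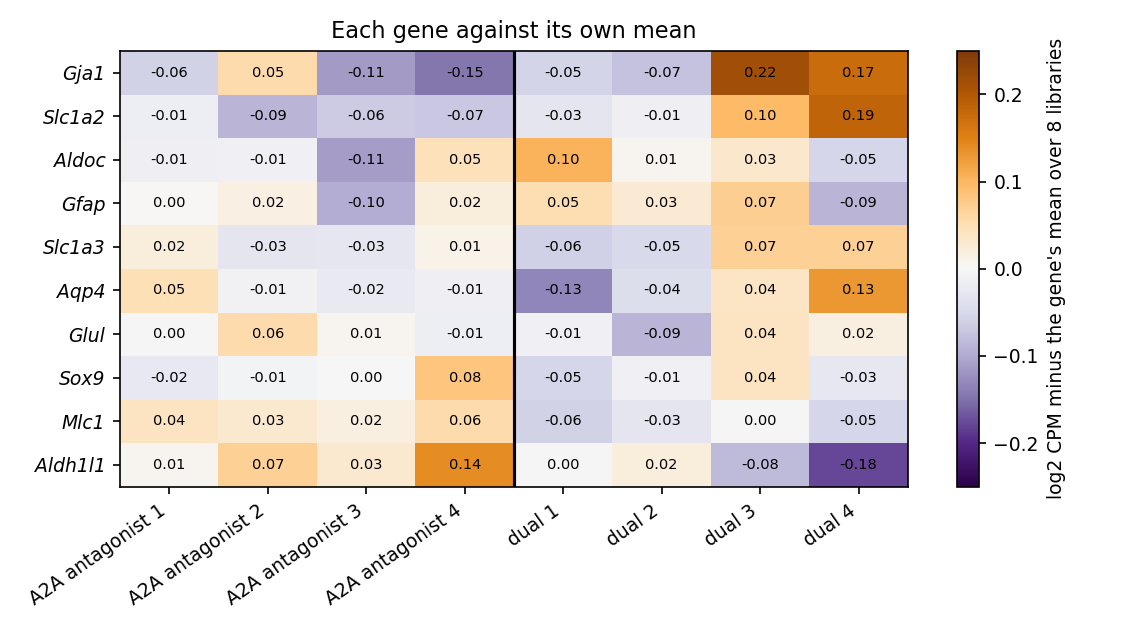
Log2 CPM of each gene minus its mean over the 8 libraries, with genes in rows, libraries in columns and a line between the A2A antagonist and the dual group. Gja1 and Slc1a2 are highest and Aldh1l1 lowest in dual replicates 3 and 4, and Mlc1 is above 0 in the 4 A2A antagonist libraries and below it in the 4 dual libraries.

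Marker genes of other cell types were compared in the same libraries. The 14 microglia markers summed to 1655 to 1805 CPM with the antagonist and 1557 to 1652 CPM with both ligands, and these sums did not overlap. The 3 subunit genes of complement C1q made up this difference, with 1023 ± 55.4 in antagonist and 890.3 ± 29.3 in dual libraries, while the other 11 markers summed to 726 ± 13.6 and 725 ± 17.4 (CPM, SD, n = 4 each). Of the 14, 10 were lower and 4 higher. Unadjusted p-values in edgeR were under 0.05 for 5 of the lower and 1 of the higher. Over all genes tested, 6.81% were lower and 5.98% higher at that level. Fcrls was lower in all 4 dual libraries than in any A2A antagonist library (33.1 and 26.2 CPM on average, edgeR adjusted p-value 0.0952). Aif1 also had a lower mean, with 58.9 and 50.9 CPM (edgeR adjusted p-value 0.110). Csf1r, a receptor on which microglia depend, was higher in all 4 dual libraries than in any A2A antagonist library (218 and 235 CPM on average, edgeR adjusted p-value 0.171). Only C1qa was called, where 0.208% of all genes tested were (edgeR log2 fold change -0.24, SE 0.040, adjusted p-value 0.024). The call of C1qa was lost in 4 of the 8 fits that leave out 1 library, without A2A antagonist replicates 2, 3 or 4 or dual replicate 3 (adjusted p-values 0.0648 to 0.0932). Each of the 9 oligodendrocyte lineage markers overlapped between the groups, although their sums did not, at 629.6 to 667 and 589.6 to 625 CPM. Olig1, a transcription factor of that lineage, went from 272 ± 12.7 to 247 ± 14.7 and the other 8 from 371 ± 7.95 to 367 ± 16.1 (CPM, SD, n = 4 each). The summed level of the 7 fibroblast markers was 2565 to 2895 CPM and 2569 to 3254 CPM, and that of the 10 astrocyte genes was 7856 to 8151 CPM and 7901 to 8403 CPM. The part of cell composition in the differences of Slc1a2, Gja1, Mlc1 and Aldh1l1 was not tested.

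Genes that work with the 10 in astrocytes were examined in 7 lists, 80 genes in all, of which 77 passed the low-count filter. In edgeR 0 were called, while 6 with higher and 8 with lower values reached an unadjusted p-value below 0.05. These made 18.2% of the 77, against 12.8% of all genes tested, and the median log2 fold change of the 77 was -0.00015. The groups did not overlap in CPM for 6 of the 77, and for 7.42% of all genes tested. The DESeq2 Wald test called 4 of the 77, where it called 3.37% of all genes given an adjusted p-value, and these are named after their values were seen. They were Pla2g7, a phospholipase of astrocytes (log2 fold change 0.19, adjusted p-value 0.064 in edgeR and 0.0040 in DESeq2), Fabp7, a fatty acid carrier (-0.10, 0.153 and 0.0137), Id3 (-0.16, 0.112 and 0.0202) and Plec (0.15, 0.145 and 0.0471). Among 11 tested genes of glutamate, GABA and amino acid handling, 5 were higher and 6 lower, with a median of -0.0040. The ends of this list were Slc7a11, the cystine and glutamate exchanger, at a log2 fold change of 0.20 (adjusted p-value 0.145), and Slc6a9, a glycine transporter, with -0.19 (adjusted p-value 0.135). Glud1, the mitochondrial glutamate dehydrogenase and the most abundant of the list per length, had 341 ± 2.84 and 324 ± 6.69 in antagonist and dual libraries (CPM, SD, n = 4 each) (adjusted p-value 0.304). Slc7a10 failed the filter.

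Of 13 genes for potassium, bicarbonate and water transport and the endfoot complex, 9 were higher and 4 lower, with a median of 0.034. Trpv4, a calcium-permeable channel, had the largest value (0.30, adjusted p-value 0.407), with 1.66 to 2.13 CPM in antagonist and 2.18 to 2.40 CPM in dual libraries, which do not overlap, and Aqp9, another water channel, the smallest (-0.090, adjusted p-value 0.832). The sodium pump subunit gene Atp1b2 was the most abundant of these, at 506 ± 27.0 and 509 ± 18.0 in antagonist and dual libraries (CPM, SD, n = 4 each). Of 5 gap junction genes, 4 were higher and 1 lower (median 0.023), from 0.13 for Gjb2 (adjusted p-value 0.711) to -0.077 for Gjc1 (0.684), and Tjp1, a scaffold of cell junctions, was the most abundant, at a log2 fold change of 0.052. Of 11 tested genes of folate and sugar metabolism, 5 were higher and 6 lower (median -0.033), from 0.080 for Mthfd1l (adjusted p-value 0.646) to -0.18 for Shmt1 (0.497).

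Of 4 tested intermediate filament genes, 3 were higher and 1 lower (median 0.11), with 0.15 for Plec (adjusted p-value 0.145) and -0.00015 for Vim (0.999). Of 16 transcription factors of the astrocyte lineage, 4 were higher and 12 lower (median -0.022). Zbtb20 had a log2 fold change of 0.21 (adjusted p-value 0.111), Hes5, below the level set for naming and named after its value was seen, had -0.96 (0.205), and Id3, which was the most abundant factor, had 733 ± 53.2 and 658 ± 12.9 in antagonist and dual libraries (CPM, SD, n = 4 each), a log2 fold change of -0.16 and an adjusted p-value of 0.112. Of 17 other astrocyte-enriched genes, 8 were higher and 9 lower (median -0.011), from 0.23 for Dio2, which activates thyroid hormone (adjusted p-value 0.169), to -0.12 for Cldn10 (0.777). Apoe was the most abundant, at a log2 fold change of -0.011 (adjusted p-value 0.944).

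Outside these lists, the 5 protein-coding genes whose profile over the 8 libraries was closest to the mean standardised profile of the 10 genes were 1700007K13Rik (Pearson's r 0.96), Bdh2 (0.95), Glb1l2 (0.94), Mmd2 (0.92) and Neu3 (0.91). They were taken from 10617 genes whose log2 CPM averaged 3 or more, so high values of r over 8 libraries are given as a description only.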

How the data were processed

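RNA-seq libraries of 8 cultures were analysed, in 2 groups of 4 taken from the sample titles. The authors aligned paired-end reads with Hisat2 to an Ensembl mouse genome (mm10 per the labels) and counted reads per gene with featureCounts 1.5.0-p3. The deposited counts are raw and unpooled, with 32630602 to 45878639 per library. Whether counting used the strand was not given in the sources used here. The deposited tables also hold normalized values, FPKM and the authors' own fold changes and p-values, which were not used. The 9 columns of 3 control libraries, which carry no sample of this series, were not used. The 30302 genes in both tables carried the same counts for the 4 antagonist libraries, with 0 values that differed.

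Counts were filtered with filterByExpr (minimum count 10), scaled by TMM and tested with edgeR 4.0.16 in R 4.3.3 (quasi-likelihood F test, two-sided, dual against A2A antagonist, no covariates), with Benjamini-Hochberg adjustment over 18756 genes and calls at 0.05. Intervals and SE come from this fit. Log2 CPM used a prior count of 2. Single ratios were compared by two-sided exact permutation over 70 arrangements. The fits were tested on simulated counts with 200 changed genes. Alternatives were DESeq2 1.42.0, other scalings, no filter, a replicate block and leaving out each library. The members, lists and rules were chosen with earlier results of these data known. Named genes of each list are those called or, failing 2, those with the largest and smallest log2 fold change (mean log2 CPM of at least 1) and the most abundant per length. For a symbol with several identifiers the one with the highest count was used. Promoters are from RefSeq (GRCm38.p6), with chromosome 18, which holds Aqp4, left out of the search. They were obtained for 8 of the 10 genes. The file coordinates of 9 of the 10 genes equal those of GENCODE M21 (GRCm38).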

Additional observations from a re-analysis of the deposited data

Results flagged for a closer look

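Of 30 groups of 4 values examined (the 10 genes, the 4 ratios and the summed level in each group), 3 held a library whose gap to the nearest other library exceeded Dixon's 95% critical value for 4 samples, and chance gives about 1 in 20. Gfap in A2A antagonist replicate 3 had 1549 CPM where the other 3 libraries had 1656 to 1678. The log2 ratio of Gfap to Vim was -0.78 in the same library and -0.73 in each of the others. The log2 ratio of Slc1a2 to Slc1a3 in dual replicate 4 was -2.04, where the other 3 dual libraries had -2.13 to -2.12.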

How the results depend on the processing

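The number of genes called over the whole table depended on the settings. It was 39 in edgeR with TMM and 381 in the DESeq2 Wald test, 366 without the low-count filter and 17 with the replicate number as a block (replicate block), and leaving out 1 library gave 0 (without A2A antagonist replicate 4 or dual replicate 3) to 172 (without A2A antagonist replicate 1). In all 14 alternatives 0 of the 10 astrocyte genes were called, with the lowest adjusted p-value at 0.0705. Of 140 values of single genes under an alternative, 132 kept their direction and 8 turned it. The largest turned value was 0.041, for Aqp4 without dual replicate 1. Aqp4 (main value -6.0e-05) was 0.0082 with upper-quartile factors and 0.010 with total counts alone, and ranged from -0.045 to 0.041 when 1 library was left out. Slc1a3 ranged from -0.0088 to 0.036 and Glul from -0.041 to 0.0039 without single libraries. The ratio of Slc1a2 to Slc1a3 differed by 0.084 to 0.11 without single libraries. The cause of these shifts was not tested. Same-numbered libraries did not deviate together (correlations of -0.20 to -0.048 over 11062 genes), so the numbers were not taken to pair the samples. The replicate block left 0 of the 10 genes called. Between libraries of different number, correlations ran from -0.15 (A2A antagonist replicate 2 with dual replicate 4) to 0.22 (A2A antagonist replicate 4 with dual replicate 2). Whether libraries share an origin under other numbers was not tested.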
